A study of Mus musculus with 7 samples.

Results

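The interleukin 1 family and its receptors were followed in the mouse seminal vesicle through 7 genes: the agonists *Il1a* and *Il1b*, the antagonist *Il1rn*, the signalling receptor *Il1r1*, the decoy receptor *Il1r2* and the related cytokines *Il18* and *Il33*. They were taken by name, not by any measured value, and are 7 of the 30406 genes counted in every library. The data are droplet single-cell RNA counts of whole seminal vesicles from 23 wild type male mice in 7 libraries. An aging pool held 10 C57BL/6J mice on chow whose cells had been tagged per mouse, 2 at 3 months of age, 2 each at 20 and 28 months without rapamycin and 2 each at 20 and 28 months with rapamycin. A diet pool held 8 tagged FVB/NJ mice of 3 months, with 2 mice each fed a control diet, a high fat diet, a low protein diet or under caloric restriction. The remaining 5 libraries held 1 FVB/NJ mouse each. Of these, 3 came from 3-month mice fed the control diet, the high fat diet or the low protein diet, 1 from a young individual of 3 months and 1 from an old individual of 18 months, both fed the control diet. Strain, diet, flow cell and most of the age range go with the pool and cannot be told apart, and only aging pool mice had rapamycin. Nothing says that tissue of a mouse was sampled more than once, so the mouse is the replicate throughout.

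Of 53352 barcodes, 40306 cells passed the limits of at least 500 genes, at least 200 UMIs (unique molecular identifiers, here the count of RNA molecules caught) and at most 10% mitochondrial UMIs. Cells were put into 7 classes by gates on marker UMIs. These were the *C1qa* macrophages (1352 cells, *C1qa* at least 3), the *C1qa*-negative *Cd74*-positive myeloid cells (405 cells, called *Cd74* myeloid cells), the *Cd3e* T cells (632), the *Col1a1*/*Col1a2* fibroblasts (1904), the *Pecam1* endothelial cells (1344), the *Krt5*/*Krt14* basal cells (5169) and the secretory cells (9410, at least 25% of UMIs from *Svs* genes, which encode seminal vesicle secretory proteins). A further 19392 cells met no gate, and 698 met 2 or more and were given no class. Markers that the gates did not use were highest in their own class for the macrophage, T cell, fibroblast, endothelial and basal lists, 5 of 5 each. In *Cd74* myeloid cells 4 of 5 were, all but *H2-Eb1*, and in secretory cells 1 of 4, since *Epcam*, *Krt8* and *Krt18* were highest in basal cells. *Epcam* and *Krt8* were on both the basal and the secretory list. The prostate-like markers *Tgm4*, *Pbsn* and *Pate9* were also highest in basal cells, at 2209, 1418 and 351 CPM. In secretory cells they were at 33.8, 19.8 and 35.7 CPM. The part of prostate-like RNA in the results for basal cells was not tested. The young individual gave 9160 and the old individual 9108 of the cells that passed. They gave 0 secretory cells and nearly all of the 3646 classless cells rich in epididymis markers. Comparisons between classes were therefore also run without them. The shares of UMIs and most shares of cells are given only with them. The neutrophil genes *S100a8* and *S100a9* stood at 0.418 and 0.209 CPM (UMIs of the gene per 1000000 UMIs) over all macrophages and at 21.5 and 43.0 CPM in *Cd74* myeloid cells, and *Retnlg* was at 0 in both classes. *Cxcr2* was at 0.627 CPM in macrophages and 1.13 in *Cd74* myeloid cells. *Csf3r* went the other way, at 25.1 CPM in macrophages and 5.09 in *Cd74* myeloid cells.

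Interleukin 1 alpha and beta signal through the same receptor, the product of *Il1r1* together with the accessory chain of *Il1rap*, to NF-kappaB and its inflammatory target genes. The product of *Il1rn* occupies that receptor without signalling, and that of *Il1r2* binds the cytokines without passing a signal on. Interleukin 1 beta and interleukin 18 are made as precursors that inflammasomes activate through caspase 1, and interleukin 33 is a nuclear cytokine of stromal, endothelial and epithelial cells that is released on damage.

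In the GRCm38 build with its GENCODE annotation, all 7 are protein-coding genes. *Il1a* (2:129299610-129309972, minus strand) and *Il1b* (2:129364570-129371139, minus strand) lie 54597 bases apart, and *Il1rn* (2:24336853-24351494, plus strand) is on the same chromosome. *Il1r2* (1:40074079-40125231) and *Il1r1* (1:40225080-40317257) both lie on the plus strand of chromosome 1 with 99848 bases between them. *Il18* is at 9:50554827-50581840 and *Il33* at 19:29925114-29960718, both on the plus strand. The RefSeq promoter table for GRCm38.p6 held 11 start sites for the 7 genes. The 100 bases before the start are shown for both agonists, for the *Il33* start that carries the same letters and for an *Il1rn* start that does not, since *Il1a*, *Il1b* and *Il1rn* were counted mostly in the same class in the results that follow.
Il1a, chr2:129309973-129310072, minus strand: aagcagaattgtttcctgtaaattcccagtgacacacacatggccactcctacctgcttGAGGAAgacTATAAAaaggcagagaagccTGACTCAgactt
Il1b, chr2:129371140-129371239, minus strand: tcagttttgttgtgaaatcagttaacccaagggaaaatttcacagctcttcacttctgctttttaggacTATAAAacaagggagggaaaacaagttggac
Il33, second start, chr19:29945690-29945789, plus strand: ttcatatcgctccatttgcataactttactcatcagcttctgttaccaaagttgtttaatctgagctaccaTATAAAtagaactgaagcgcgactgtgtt
Il1rn, second start, chr2:24345191-24345290, plus strand: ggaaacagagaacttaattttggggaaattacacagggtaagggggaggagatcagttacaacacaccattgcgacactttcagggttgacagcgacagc
Capitals mark the motifs searched on both strands: TATAAA (the TATA box core), TGANTCA (the core bound by AP-1) and GAGGAA (a core bound by the myeloid factor PU.1). TATAAA stood at bases -32 to -27 before the start of *Il1a*, at -31 to -26 in *Il1b* and at -29 to -24 at the second start of *Il33*. It was found in 5.561% of the 32851 promoter windows of that length, TGANTCA in 2.731% and GAGGAA in 9.823%. None of the 3 motifs was in the windows of the other 8 starts, which are those of *Il1rn* (3), *Il1r1* (2), *Il1r2*, *Il18* and the first start of *Il33*. A match is a match of letters only.

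The agonists and the antagonist were counted mostly in macrophages and *Cd74* myeloid cells, and the receptor *Il1r1* and the cytokine *Il33* mostly outside them. Macrophages made up 3.35% of all cells and held 82.5% of the 3377 *Il1a* UMIs, 61.8% of the 17315 *Il1b* UMIs and 69.1% of the 3254 *Il1rn* UMIs. *Cd74* myeloid cells, 1.00% of all cells, held 4.74%, 24.97% and 12.3% of these in the same order, and 39.1% of the 1086 *Il1r2* UMIs. The 95% exact binomial interval of the macrophage share of *Il1b* ran from 61.1 to 62.6% and that of *Il1a* from 81.1 to 83.7%, which covers counting error only. *Il1r1* (6808 UMIs) and *Il33* (3491 UMIs) were spread more widely. Cells of no class held 59.2% of the *Il1r1* UMIs, against 15.5% in fibroblasts and 1.12% in macrophages, and they held 62.4% of the *Il33* UMIs, against 16.9% in fibroblasts and 6.90% in endothelial cells. *Il18* was the least counted (949 UMIs), with 43.6% in cells of no class, 21.6% in basal cells and 13.4% in macrophages. Secretory cells held 54.5% of all UMIs but at most 0.544% of the UMIs of *Il1a*, *Il1b*, *Il1rn* and *Il33*.

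**Figure D1:**
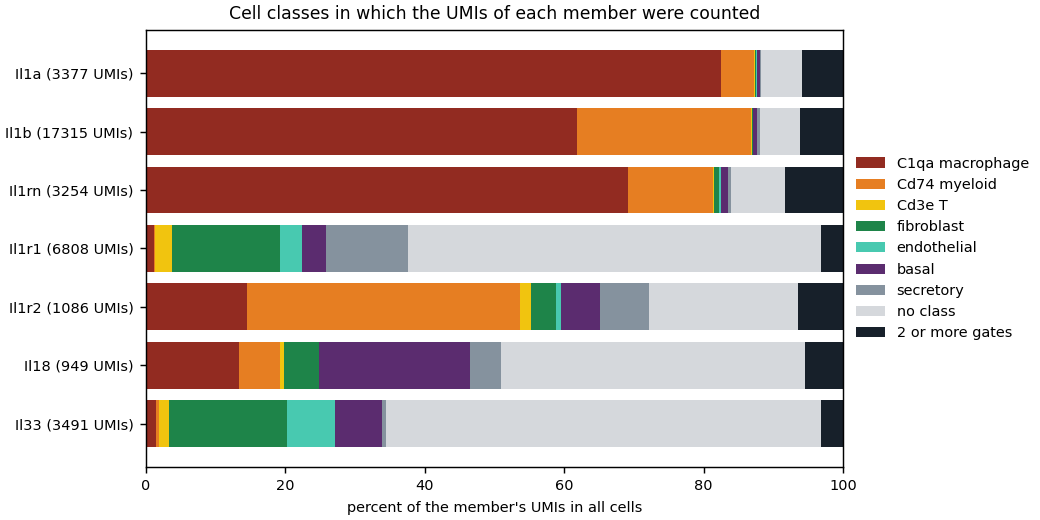
Percent of the UMIs of each member (x axis) counted in each of the 7 classes, in cells of no class and in cells that met 2 or more gates, with 1 bar per member and its UMI total beside the name. The bars of Il1a, Il1b and Il1rn are mostly macrophage, at 82.5%, 61.8% and 69.1%, while those of Il1r1 and Il33 are mostly cells of no class.

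The level of a member in a mouse is given as CPM of the UMIs summed over all cells of a class, for mice with at least 10 such cells. *Il1b* ranged over the 23 mice from 1348 to 3785 CPM in macrophages, with a median of 2390, and over 13 mice from 881 to 4597 CPM in *Cd74* myeloid cells, with a median of 2607. In every other class the median mouse was under 1 CPM and no mouse exceeded 113 CPM. The myeloid and macrophage ranges therefore overlapped each other and no other class. *Il1a* ranged from 0 to 1236 CPM in macrophages, with a median of 553, and the 1 mouse at 0 was the single-mouse library of the low protein diet with 11 macrophages. In *Cd74* myeloid cells it ranged from 13.9 to 136 CPM with a median of 47.7, and in all other classes the median mouse was at 0. The level of *Il1a* in macrophages thus varied more between mice than that of *Il1b*.

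**Figure D2:**
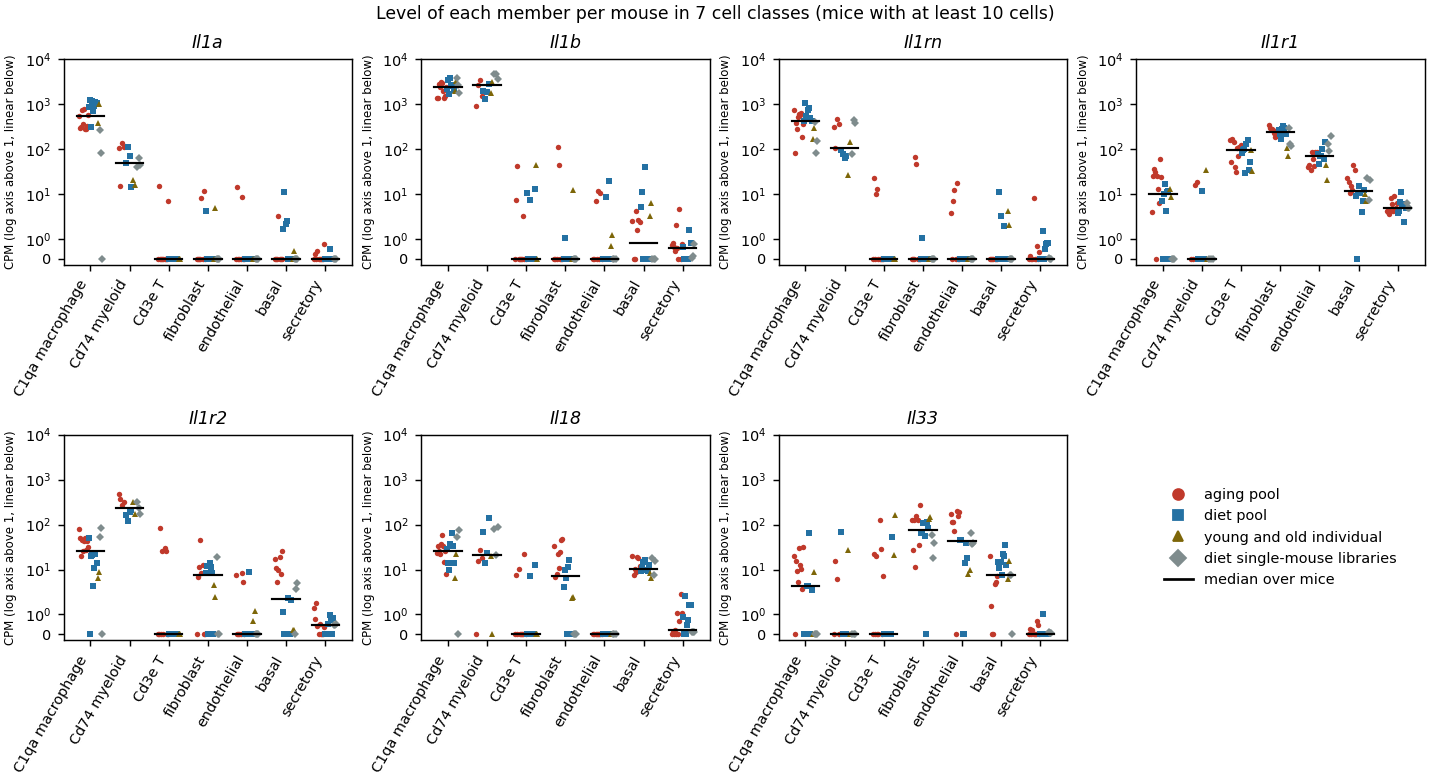
CPM of each member per mouse (points, by library type) in the 7 classes, with the median over mice as a line, on an axis that is logarithmic above 1 and linear below. Every mouse shown is at 881 CPM or above for Il1b in both myeloid classes, and Il1r1 is highest in fibroblasts, where the mice sit between 71.5 and 337 CPM.

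Levels were tested between a class and the sum of the other 6 classes of the same mouse in an edgeR quasi-likelihood fit that held a term for each mouse, and p-values were adjusted by Benjamini-Hochberg over every gene in the fit. In macrophages 4 of the 7 members passed the filter on low counts and all 4 were called, where 74% of the 4256 genes tested were called, 32.7% higher and 41.3% lower. That share is close to the background, so the sizes are what describes the members. *Il1a* was higher by 7.30 ± 0.45 (log2, SE; edgeR adjusted p = 6.31e-15, in 22 of 23 mice), *Il1rn* by 5.83 ± 0.34 (adjusted p = 1.50e-15, 23 of 23) and *Il1b* by 5.10 ± 0.28 (adjusted p = 2.76e-16, 23 of 23). *Il1r1* was lower (-1.43 ± 0.28, adjusted p = 3.37e-05), at 9.99 against 23.5 CPM. *Il1r2*, *Il18* and *Il33* did not pass the filter, and with DESeq2 (38.4% of 21450 genes called) or without the filter (41.7%) they were called as well, *Il1r2* and *Il18* higher and *Il33* lower.

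In *Cd74* myeloid cells 6 members were tested and 5 called, with 41.6% of 5551 genes called, 16.6% higher and 25% lower. *Il1r2*, the decoy receptor, was higher by 5.73 ± 0.37 (edgeR adjusted p = 3.19e-09), with all 13 mice between 118 and 471 CPM and a median of 2.52 CPM in the other classes. *Il1b* was higher by 4.30 ± 0.64 (adjusted p = 2.72e-05, 13 of 13 mice) and *Il1rn* by 2.66 ± 0.76 (adjusted p = 0.00803, 12 of 13). *Il18* was higher by 2.28 ± 0.49 (adjusted p = 9.30e-04), at 21.0 against 5.28 CPM, and *Il1r1* was lower (-2.28 ± 0.46, adjusted p = 5.40e-04). *Il1a* differed by 0.80 ± 0.58 and did not pass (adjusted p = 0.280). The macrophages are part of the other classes here. In the diet pool alone the difference in *Il1rn* was 0.99 (adjusted p = 0.21), and in the aging pool alone that in *Il18* was 0.91 (adjusted p = 0.31).

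The scaling matters for every comparison of a class with the rest. With library size in place of TMM the median of all genes moved by 0.63 to 1.32 (log2) toward higher in the 6 classes other than secretory cells, by 2.20 toward lower in secretory cells and by 2.24 in basal against secretory cells. The share of called genes that were higher went from 44.2 to 77.3% in macrophages, 40 to 75.2% in *Cd74* myeloid cells, 44.6 to 86.8% in T cells, 43.4 to 90.3% in fibroblasts, 38 to 88.5% in endothelial cells and 43.1 to 93.5% in basal cells, and from 40.1 to 2.44% in secretory cells. It went from 55.2 to 98.2% in basal against secretory cells, from 50 to 39.1% in fibroblasts against endothelial cells, from 52.8 to 42.6% for the pools in endothelial cells and from 55.1 to 73.2% for the pools in *Cd74* myeloid cells. No member called with TMM changed its direction with library size, and *Il1r2* and *Il33* in basal cells were no longer called.

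Not every macrophage held the cytokines. After each cell was thinned to 1000 UMIs, 51.1% of 1335 macrophages held an *Il1b* UMI (exact binomial interval 48.4 to 53.8%), 27.0% an *Il1a* UMI and 22.9% an *Il1rn* UMI. Of 401 *Cd74* myeloid cells 65.3% held *Il1b* (60.5 to 70.0%), 4.49% *Il1a* and 13.0% *Il1rn*. In 9410 thinned secretory cells, taken as a low estimate of free RNA, the shares were 0.0531%, 0 of 9410 (which allows up to 0.0392%) and 0.0106%. Thinning keeps a smaller part of a secretory cell than of a macrophage, so it lowers free RNA more in the secretory cell. Of these secretory cells 8441 came from the 3 single-mouse diet libraries, which held 45 of the 1352 macrophages, and the young and old individuals gave none. In the pools alone *Il1b* was in 0 of 585 thinned secretory cells of the aging pool (which allows up to 0.629%). It was in 0 of 384 of the diet pool (up to 0.956%). Of macrophages, 49.2% of 736 and 54.85% of 361 held it. Unthinned, at a median of 3319 UMIs a macrophage, 4954 a *Cd74* myeloid cell and 31442 a secretory cell, the *Il1b* shares were 62.1%, 76.8% and 0.319%. The tenth of macrophages with the most UMIs of a member, 136 cells, held 49.7% of the *Il1b*, 64.0% of the *Il1a* and 66.3% of the *Il1rn* UMIs, and the highest cell held 158 *Il1b* UMIs. Among thinned macrophages with an *Il1b* UMI 37.0% also held *Il1a*, against 16.5% of those without, and 28.6% against 16.9% held *Il1rn*. These cells share mice and dissociations, so the shares are a description of the cells and were not tested.

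The antagonist *Il1rn* was at 79.6 to 1071 CPM in macrophages over the 23 mice, with a median of 430, and at 27.0 to 455 CPM in *Cd74* myeloid cells over 13 mice, with a median of 107. The ranges overlapped widely. In every other class the median mouse was at 0, and the highest values were 67.7 CPM in fibroblasts, 22.3 in T cells, 17.1 in endothelial cells, 10.8 in basal cells and 8.05 in secretory cells.

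Compared directly in the 13 mice with both classes, macrophages had more *Il1a* and *Il1rn* and less *Il1r2* than *Cd74* myeloid cells, and no difference in *Il1b* was detected. The 3 called were of 4 tested, with 54% of 1575 genes called, 26.9% higher in macrophages and 27% lower. *Il1b* was at a median of 2120 CPM in macrophages and 2607 in *Cd74* myeloid cells, higher in macrophages in 7 of 13 mice, a difference of 0.02 ± 0.15 (log2, SE; edgeR adjusted p = 0.921) whose sign turned with library size, with cells of several gates kept and when the young and old individuals were left out. *Il1a* was higher in macrophages by 2.81 ± 0.37 (adjusted p = 2.74e-06, 12 of 13 mice), with medians of 302 and 47.7 CPM. *Il1rn* was higher by 1.36 ± 0.36 (adjusted p = 0.00357, 10 of 13 mice), with medians of 406 and 107 CPM, though in the aging pool alone the difference was 0.53 and did not pass (adjusted p = 0.343). *Il1r2* was lower in macrophages in 13 of 13 mice, with a difference of -3.13 ± 0.25 (adjusted p = 4.92e-09), with medians of 21.0 and 231 CPM and no overlap between the classes.

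**Figure D3:**
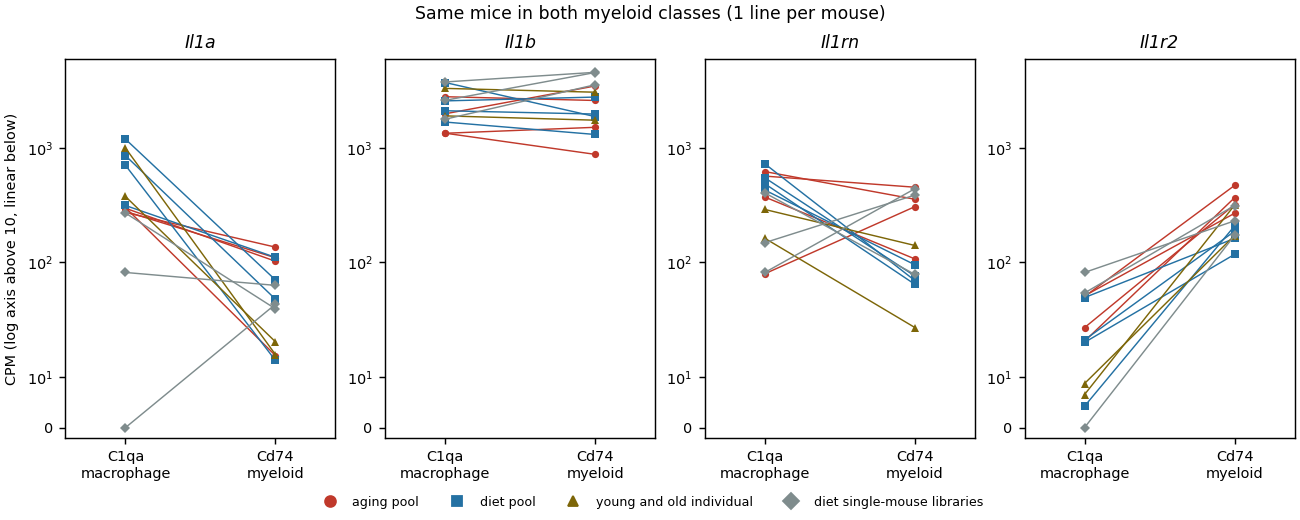
CPM of 4 members in the macrophages and the Cd74 myeloid cells of the 13 mice with both (1 line per mouse, colour by library type), on an axis that is logarithmic above 10 and linear below. The Il1b lines run in both directions, the Il1a lines fall in 12 of 13 mice and the Il1r2 lines rise in 13 of 13.

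Among the macrophages 2 groups were separated by markers, those with at least 2 UMIs of *Mrc1* and *Cd163* (596 cells, genes of resident, scavenging macrophages) and those with none of these and at least 1 UMI of *Trem2* or *Cd72* (421 cells). In the 16 mice with 10 cells of each, *Il1b* was at 456 to 1898 CPM in the *Mrc1*/*Cd163* group, where 18 mice in all had 10 cells, and at 1638 to 7396 CPM in the *Trem2*/*Cd72* group, so the ranges overlapped slightly. Within a mouse the order was the same in all 16: *Il1b* was lower in the *Mrc1*/*Cd163* group, a difference of -1.61 ± 0.13 (log2, SE; edgeR adjusted p = 5.87e-09), with medians of 1119 and 3536 CPM. *Il1a* was lower too (-1.36 ± 0.24, adjusted p = 9.47e-05), in 15 of 16 mice, with medians of 363 and 837 CPM. *Il1rn* did not follow them. Its difference was 0.31 ± 0.26 (adjusted p = 0.366, higher in 9 of 16 mice), with medians of 462 and 354 CPM. The filter passed 3 members and 2 were called, where 38.6% of 946 genes were, 21.6% higher and 17% lower in the *Mrc1*/*Cd163* group.

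**Figure D4:**
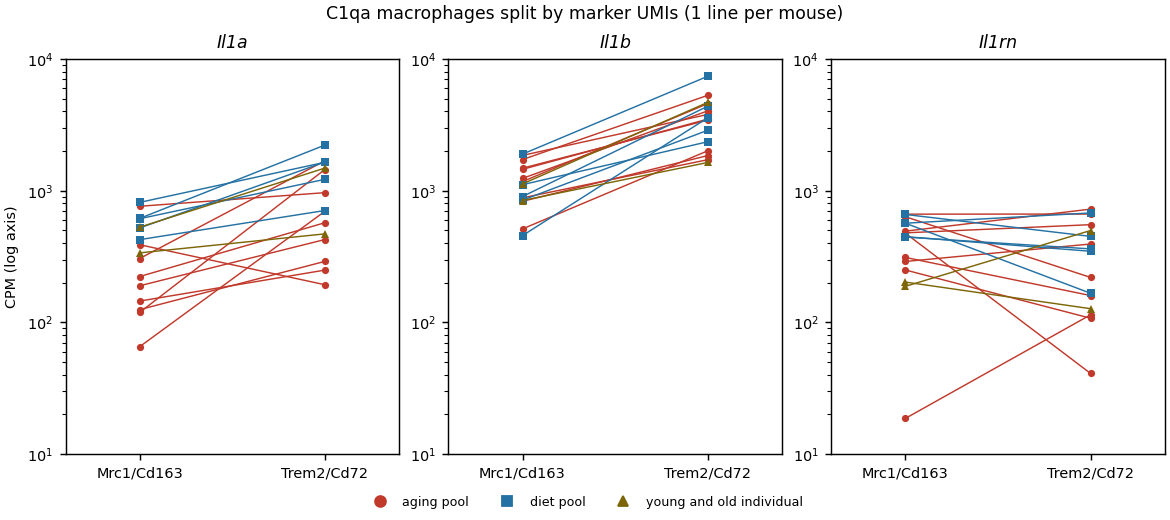
CPM of Il1a, Il1b and Il1rn in macrophages with Mrc1/Cd163 UMIs and in those with Trem2/Cd72 UMIs, 1 line per mouse for the 16 mice with 10 cells of each, on a log axis. All 16 Il1b lines and 15 of the 16 Il1a lines rise toward the Trem2/Cd72 cells, and the Il1rn lines run in both directions.

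The decoy receptor *Il1r2* was highest in *Cd74* myeloid cells (118 to 471 CPM, median 231, 13 mice), followed by macrophages (0 to 81.7 CPM, median 26.4, 23 mice), fibroblasts (0 to 45.1 CPM, median 7.41) and basal cells (0 to 26.4 CPM, median 2.22). Secretory cells were at 0 to 1.80 CPM, and the median T cell and endothelial sample was at 0. Only the first of these steps separated all mice. After thinning 19.2% of *Cd74* myeloid cells and 2.55% of macrophages held an *Il1r2* UMI, against 0.0638% of secretory cells. Unthinned, these shares were 38.8%, 6.805% and 0.786%. The *Cd74* myeloid class was mixed in *Il1r2*. By a split chosen after the values were seen, its 123 cells with *Ccr7* or *Ccl22* UMIs (genes of migratory dendritic cells) and none of *Xcr1* or *Clec9a* were at 439 CPM over all mice, its 132 cells with *Xcr1* or *Clec9a* UMIs (genes of cross-presenting dendritic cells) at 136 CPM and the other 150 cells at 201 CPM. Summed over mice, the first were highest in each of the 4 library types, at 320 to 685 CPM. The order of the others turned between types, at 137 against 312 CPM in the aging pool and 142 against 47.8 CPM in the diet pool. Few mice had 10 cells of both the *Ccr7*/*Ccl22* group and the group with neither marker pair. These were at 409 against 413 CPM in 1 aging pool mouse of 28 months and at 361 against 348 CPM in the young individual. In the single-mouse high fat library they were at 649 against 0 CPM. *Il1rn* was lowest in the *Xcr1*/*Clec9a* cells in all 4 types, at 0 to 60.4 CPM, against 155 to 592 CPM in the *Ccr7*/*Ccl22* cells. The other 150 cells held 225 *Il1rn* and 1595 *Il1b* UMIs, of which 1 aging pool mouse of 28 months gave 111 and 735 from 18 cells, and they were at 865 CPM of *Il1rn* in the aging pool and 26.6 to 300 CPM in the other types.

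The receptor *Il1r1* was found in every class, and most of all in stromal cells and T cells. Fibroblasts were highest, at 71.5 to 337 CPM over 20 mice with a median of 235, followed by T cells at 29.0 to 164 CPM (median 95.5) and endothelial cells at 20.3 to 199 CPM (median 70.2). Basal cells (0 to 44.5 CPM, median 11.5), macrophages (0 to 58.9 CPM, median 9.99) and secretory cells (2.37 to 11.04 CPM, median 4.88) were lower, and the median *Cd74* myeloid sample was at 0, with 4 of 13 mice above it. Each of these ranges overlapped that of its neighbour in the order. Secretory cells were nevertheless above 0 in 21 of 21 mice, with 804 UMIs, in cells whose total is filled by *Svs* RNA.

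In fibroblasts 5 members were tested and 5 called, with 54.6% of 7269 genes called, 23.7% higher and 30.9% lower. *Il1r1* was higher by 3.09 ± 0.18 (log2, SE; edgeR adjusted p = 2.87e-14), in 20 of 20 mice and with no overlap with the other classes of the same mice, at 235 against 10.9 CPM. *Il33* was the other member higher, and *Il1rn* (-4.51 ± 0.40), *Il1a* (-5.49 ± 0.37) and *Il1b* (-6.22 ± 0.44) were lower. Against endothelial cells, the only member that passed the filter, *Il1r1*, was higher in fibroblasts by 1.75 ± 0.17 (adjusted p = 1.42e-09, 18 of 19 mice, 229 against 70.7 CPM), where 65.8% of 1871 genes were called, 32.9% in each direction. With the higher gates *Il1r1* was not called in this comparison. The young and the old individual had the lowest fibroblast values, 71.5 and 108 CPM, and the 8 aging pool mice (188 to 337 CPM) and 7 diet pool mice (163 to 321 CPM) overlapped.

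T cells had higher *Il1r1* than the other classes by 0.92 ± 0.18 (edgeR adjusted p = 6.23e-05, 19 of 20 mice, 95.5 against 21.2 CPM). It was 1 of 2 members tested, both called, with 63.2% of 3857 genes called, 28.2% higher and 35.1% lower. The other member was *Il1b*, which was lower (-6.53 ± 0.41). The call in T cells depended on the setting. It was lost with DESeq2 (0.33, adjusted p = 0.102), in the diet pool alone (0.73, adjusted p = 0.102) and with the lower gates (0.16, adjusted p = 0.514), and the median level was 46.6 CPM with at least 2 *Cd3e* UMIs. Endothelial cells were higher by 0.41 ± 0.17 (adjusted p = 0.0358, 70.2 against 20.7 CPM), which did not pass in 5 of the alternatives and turned to -0.32 with the lower gates. The 5 members tested in endothelial cells were all called, with 59.4% of 8155 genes called, 22.6% higher and 36.8% lower. After thinning 14.2% of fibroblasts held an *Il1r1* UMI, 6.38% of T cells and 4.25% of endothelial cells, against 0.595% of secretory cells. Unthinned, the shares were 31.1%, 15.35%, 10.9% and 7.535% in the same order.

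In basal and secretory cells nearly every member was low. All 7 members passed the filter in basal cells and 7 were called, 6 of them lower, with 55.4% of 8099 genes called, 23.9% higher and 31.5% lower. Without the young and old individuals, which held 1994 and 1644 of the 5169 basal cells, 4 were called (58.3% of 7018 genes), and 4 in the diet pool alone (52.6% of 6785). In secretory cells 7 of 7 were lower, with 81.7% of 7579 genes called, 32.7% higher and 48.9% lower, from -1.22 ± 0.14 for *Il1r1* over -2.57 ± 0.31 for *Il18* to -7.63 ± 0.30 for *Il1b* (edgeR adjusted p of 2.67e-08 or below). Between basal and secretory cells no member passed the filter, where 77.5% of 5894 genes were called, 42.8% higher and 34.7% lower in basal cells. DESeq2 called 3 in that comparison, *Il18* and *Il33* higher in basal cells and *Il1r1* lower, where it called 37.2% of 18610 genes. The direction of *Il1r1* turned in CPM, since its median given above was higher in basal than in secretory cells.

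*Il33*, the nuclear cytokine, was highest in fibroblasts (0 to 270 CPM, median 74.9, 20 mice) and endothelial cells (0 to 197 CPM, median 42.5, 20 mice), with basal cells at 0 to 35.0 CPM (median 7.59) and macrophages at 0 to 66.3 CPM (median 4.20). The median mouse was at 0 in *Cd74* myeloid cells (0 to 66.8 CPM), T cells (0 to 162 CPM) and secretory cells (0 to 1.01 CPM). Each range reached 0, and all overlapped. *Il33* was higher in fibroblasts than in the other classes by 2.77 ± 0.29 (log2, SE; edgeR adjusted p = 5.65e-09, 19 of 20 mice, 74.9 against 6.44 CPM). It was higher in endothelial cells by 1.61 ± 0.55 (adjusted p = 0.0136, 15 of 20 mice), but the difference was -0.09 in the diet pool alone (adjusted p = 0.904). In basal cells it was lower (-1.32 ± 0.39, adjusted p = 0.00622). After thinning 10.3% of fibroblasts held an *Il33* UMI, 2.01% of T cells and 1.83% of endothelial cells, against 0.0213% of secretory cells. Unthinned, these shares were 18.4%, 2.69%, 5.58% and 0.191%.

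Within the endothelial cells *Il33* was uneven. By a split chosen after the values were seen, the 97 endothelial cells with at least 2 UMIs of *Prox1*, *Lyve1* and *Mmrn1*, genes of lymphatic endothelium, held 206 of the 241 UMIs, 195 CPM against 10.7 CPM in the other 1247 cells. Those 97 cells were unevenly spread over the libraries: 60 were among the aging pool's endothelial cells, with 198 *Il33* UMIs, 11 in the diet pool, with 7, 23 in the young and old individuals, with 1, and 3 in the other single-mouse libraries, with 0. Only 1 mouse, the young individual, had at least 10 such cells. Its 14 cells were at 0 CPM of *Il33* and its other endothelial cells at 8.22 CPM. *Il1r1* was at 23.7 CPM in the 97 cells and at 58.5 CPM in the other endothelial cells.

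*Il18* was low wherever it was found. Macrophages were at 0 to 74.5 CPM (median 25.7, 23 mice), *Cd74* myeloid cells at 0 to 139 CPM (median 21.0, 13 mice), basal cells at 6.49 to 19.9 CPM (median 10.5, 20 of 20 mice above 0) and fibroblasts at 0 to 48.3 CPM (median 7.21). The 1344 endothelial cells held 0 UMIs, which allows up to 0.691 CPM. Basal cells were higher in *Il18* than the other classes by 0.61 ± 0.24 (edgeR adjusted p = 0.0327, 19 of 20 mice, 10.5 against 3.60 CPM). That call did not pass once the young and old individuals were left out (0.48, adjusted p = 0.111) and was gone in the diet pool alone (-0.01). Basal cells also held the highest levels of the prostate-like markers, and the part of this in the call was not tested. After thinning 1.02% of basal cells and 2.55% of macrophages held an *Il18* UMI, against 0.0638% of secretory cells. Unthinned, these shares were 3.44%, 8.36% and 0.404%.

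The partners of the members were followed in a list of 40 genes for the receptors, adaptors, inflammasome parts and target genes of the pathway, 36 of them in the tables. In macrophages 19 passed the filter, 16 were higher and 1 lower, where 32.7% of all genes were higher and 41.3% lower. The largest differences were the target *Cxcl2*, a neutrophil chemokine (6.66 ± 0.31), *Nlrp3*, the inflammasome sensor that works upstream of caspase 1 (6.65 ± 0.29), the chemokine *Cxcl1* (3.89 ± 0.23) and the DNA sensor *Aim2* (3.56 ± 0.31), all with edgeR adjusted p of 1.57e-11 or below. *Nlrp3* was at 407 CPM in macrophages against 3.27 in the other classes. *Rela*, an NF-kappaB subunit, was lower with TMM (-0.35 ± 0.12, adjusted p = 0.0128), though its CPM was higher in 13 of 23 mice and 0 genes of the list were lower with library size. *Cd74* myeloid cells had 7 of 20 higher and 2 lower, where 16.6% of all genes were higher and 25% lower. *Nlrp3* (2.21 ± 0.54), the inhibitor *Tnfaip3* (1.49 ± 0.29), the adaptor *Traf6* (1.32 ± 0.33) and the kinase *Irak2* (1.30 ± 0.33) led the first, and *Ccl2* (-1.63 ± 0.62) and *Tollip* (-0.89 ± 0.30) were the second.

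In fibroblasts, the class highest in *Il1r1*, 11 of 22 pathway genes were higher and 4 lower. *Ccl2*, a monocyte chemokine, was higher by 3.52 ± 0.32, *Il6* by 2.55 ± 0.23, *Ptgs2* (cyclooxygenase) by 2.30 ± 0.22 and *Irak3*, an inhibitory kinase, by 2.00 ± 0.24, while *Nlrp3* (-5.21 ± 0.35), *Pycard*, the inflammasome adaptor (-3.06 ± 0.25), *Cxcl2* (-2.47 ± 0.39) and *Irak2* (-1.90 ± 0.32) were lower. In endothelial cells 8 of 24 were higher, led by *Il6* (1.96 ± 0.27), the inhibitory receptor *Sigirr* (1.34 ± 0.35), *Gsdmd* (1.05 ± 0.36) and *Irak3* (0.96 ± 0.34), and 7 were lower, led by *Nlrp3* (-4.97 ± 0.34), *Cxcl2* (-3.93 ± 0.46), *Ccl2* (-3.59 ± 0.32) and *Ptgs2* (-3.59 ± 0.43). Against endothelial cells, fibroblasts were higher in 7 of 11, led by *Ccl2* (5.68 ± 0.37), *Ptgs2* (5.02 ± 0.35), *Cxcl1* (2.69 ± 0.32) and *Cxcl2* (1.39 ± 0.49), and lower in *Nfkbia* (-0.27 ± 0.08). T cells had 4 of 16 higher, led by *Il18r1*, the receptor for interleukin 18 (4.71 ± 0.27, adjusted p = 3.35e-14, 105 against 2.14 CPM, 20 of 20 mice). *Tnfaip3* (1.46 ± 0.14), *Irak2* (1.30 ± 0.20) and *Tab2* (0.45 ± 0.14) were the other 3. A further 8 were lower in T cells, led by *Cxcl2* (-3.65 ± 0.39), *Cxcl1* (-2.52 ± 0.38), *Ccl2* (-2.11 ± 0.43) and *Ptgs2* (-1.82 ± 0.32). With library size the counts of higher and lower genes were 16 and 4 in fibroblasts, 15 and 5 in endothelial cells and 6 and 4 in T cells. Of all genes with TMM, 23.7% were higher and 30.9% lower in fibroblasts, and 22.6% and 36.8% in endothelial cells. In T cells these shares were 28.2% and 35.1%, and between fibroblasts and endothelial cells 32.9% in each direction. The 4 of 16 higher in T cells thus lay near the share of all genes.

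In basal cells 6 of 22 pathway genes were higher and 12 lower, or 12 and 3 with library size. *Il1rap*, the accessory chain of the receptor, was higher by 1.48 ± 0.21 (edgeR adjusted p = 2.42e-06), at 19.1 against 2.59 CPM and in 20 of 20 mice, followed by *Rela* (1.22 ± 0.15), *Nfkb1* (0.88 ± 0.25) and *Tab2* (0.57 ± 0.10). *Nlrp3* (-7.90 ± 0.27), *Ccl2* (-5.18 ± 0.52), *Cxcl2* (-4.29 ± 0.54) and *Cxcl1* (-2.22 ± 0.45) had the largest negative differences. In secretory cells 2 of 22 were higher and 20 lower, led by *Cxcl2* (-6.88 ± 0.30), *Nlrp3* (-6.87 ± 0.26), *Cxcl1* (-5.02 ± 0.21) and *Ccl2* (-4.77 ± 0.26). The 2, *Pycard* and *Irak1*, were higher only with TMM, and *Irak1* was at 13.7 against 37.3 CPM. Against secretory cells, basal cells were higher in 13 of 18, led by *Ptgs2* (3.48 ± 0.41), *Casp4* (3.04 ± 0.30), *Nfkb1* (2.98 ± 0.19) and *Cxcl2* (2.87 ± 0.41), and lower in *Pycard* (-2.68 ± 0.21) and *Irak1* (-0.64 ± 0.13), the second of which turned in CPM (38.6 against 13.6). Macrophages against *Cd74* myeloid cells had 7 of 10 higher, led by *Cxcl1* (4.42 ± 0.55), *Ccl2* (3.82 ± 0.47), *Cxcl2* (3.49 ± 0.56) and *Nlrp3* (1.79 ± 0.21). The *Mrc1*/*Cd163* macrophages, lower in both agonists, were higher than the *Trem2*/*Cd72* macrophages in *Ccl2* (2.51 ± 0.30, 7728 against 1263 CPM, 16 of 16 mice) and *Cxcl1* (0.87 ± 0.20), the 2 called of 9 tested, of which none was lower. In this fit 21.6% of all genes were higher and 17% lower. These shares were 23.9% and 31.5% in basal cells, and 32.7% and 48.9% in secretory cells. In basal against secretory cells they were 42.8% and 34.7%, and in macrophages against *Cd74* myeloid cells 26.9% and 27%. The 6 of 22 higher in basal cells and the 2 of 9 in *Mrc1*/*Cd163* macrophages lay near the shares of all genes.

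Between the pools, the macrophages of the diet pool held more *Il1a*. It was at 273 to 773 CPM in the 10 aging pool mice, with a median of 339, and at 315 to 1236 CPM in the 8 diet pool mice, with a median of 983. The groups overlapped: 1 diet pool mouse was at 315 CPM, the other 7 lay at 708 CPM or above, and the highest aging pool mouse reached 773. The difference was -1.05 ± 0.26 (log2, aging minus diet, SE; edgeR adjusted p = 0.00786). Of 3 members tested 1 was called, where 12.7% of 2715 genes were, 6.56% higher and 6.11% lower in the aging pool. *Il1b* (-0.29 ± 0.19, adjusted p = 0.350) and *Il1rn* (-0.50 ± 0.30, adjusted p = 0.303) did not pass. Of 17 pathway genes 4 were lower in the aging pool and none higher: *Cxcl1* (-1.30 ± 0.26), *Cxcl2* (-1.27 ± 0.22), *Ptgs2* (-1.21 ± 0.20) and *Nlrp3* (-0.89 ± 0.18). Other properties of the macrophages moved with the pools, and their part in the result was not tested. The summed level of 18 dissociation stress genes was at 12304 to 40053 CPM (median 30782) in the aging pool and 14355 to 36832 CPM (median 18231) in the diet pool, and the *Trem2*/*Cd72* group made up a median of 28.6% and 33.5% of the macrophages. Within the *Mrc1*/*Cd163* macrophages the median of *Il1a* was 206 CPM in 10 aging pool mice and 567 in 6 diet pool mice, and within the *Trem2*/*Cd72* macrophages 571 in 9 mice and 1643 in 5.

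In *Cd74* myeloid cells, which 4 mice of each pool had in sufficient number, *Il1rn* was the member called. It was at 307 (3 months), 107 (20 months), 455 and 357 CPM (both 28 months) in the aging pool mice, all without rapamycin, and at 95.4 (control diet), 76.1 and 64.4 (both caloric restriction) and 69.5 CPM (high fat diet) in the diet pool mice. The groups did not overlap, though the lowest aging pool mouse, with 7 UMIs in 12 cells, was near the highest of the diet pool. Mice with fewer than 10 such cells were left out, and these did overlap, at 0 to 774 CPM in 6 aging pool mice and 0 to 866 CPM in 4 diet pool mice. The difference was 1.91 ± 0.39 (edgeR adjusted p = 0.0166), and it did not pass without 1 aging pool mouse of 28 months (1.63, adjusted p = 0.0641) or without 1 mouse on caloric restriction (1.79, adjusted p = 0.0507). *Il1r2* was at 471, 368, 269 and 320 CPM in the aging pool mice and at 162, 118, 187 and 208 CPM in the diet pool mice, in the same order of mice. These groups did not overlap either, but the difference of 0.92 ± 0.28 did not pass (adjusted p = 0.0805) except with library size. The share of all genes without overlap between these 4 and 4 mice was not counted, so the lack of overlap only describes the values. Of 4 members tested 1 was called, where 6.23% of 1253 genes were, 3.43% higher and 2.79% lower in the aging pool. *Nfkbia*, an inhibitor of NF-kappaB, was the 1 pathway gene called of 8 (1.10 ± 0.20).

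**Figure D5:**
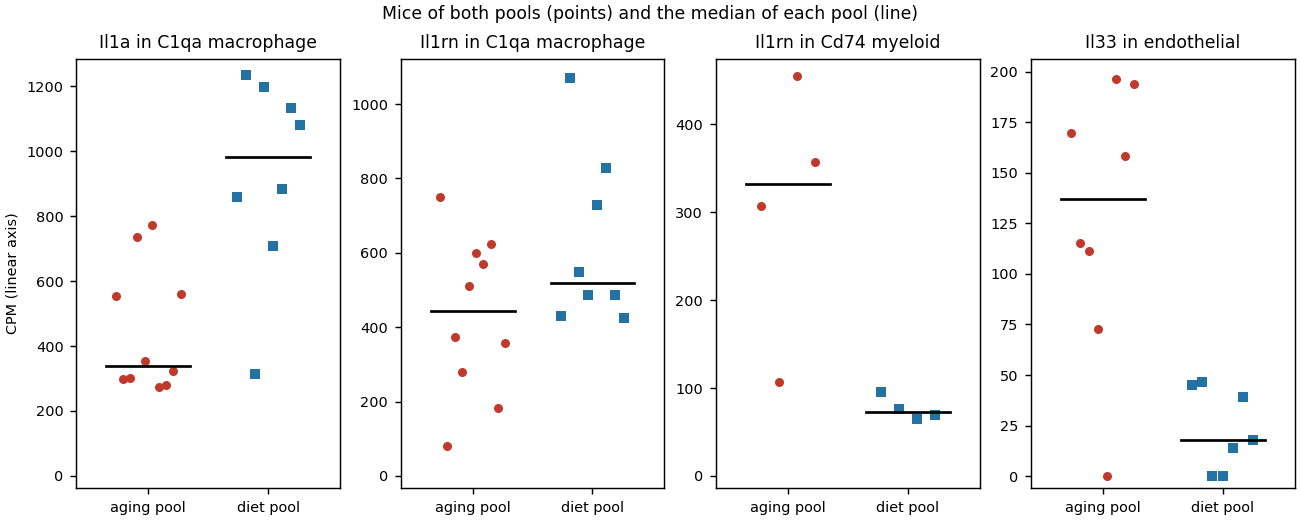
CPM per mouse of Il1a and Il1rn in macrophages, Il1rn in Cd74 myeloid cells and Il33 in endothelial cells, for the aging pool and the diet pool (points) with the median of each pool (line), on linear axes that include 0. Il1a medians are 339 and 983 CPM, Il1rn in Cd74 myeloid cells does not overlap between the pools, and Il1rn in macrophages does.

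In the other classes edgeR with the main gates and the filter called no member between the pools. In fibroblasts both tested members had adjusted p above 0.3, *Il1r1* at medians of 250 and 266 CPM (0.04 ± 0.16) and *Il33* at 125 and 66.9 CPM (0.58 ± 0.41), where 19.1% of 2256 genes were called, 10.4% higher and 8.69% lower. No member passed the filter in endothelial, basal or secretory cells, where 18.4%, 35.7% and 13.3% of genes were called. In the same order 9.68%, 19.2% and 7.4% were higher in the aging pool and 8.67%, 16.5% and 5.9% lower. In endothelial cells *Il33* was nevertheless at 0 to 197 CPM (median 137) in 8 aging pool mice and at 0 to 46.5 CPM (median 17.6) in 7 diet pool mice. The groups overlapped through 1 aging pool mouse of 28 months at 0, and the other 7 were at 72.5 CPM or above. DESeq2 called *Il33* higher in the aging pool in that comparison, as did edgeR without the filter and with the lower gates. The cells with *Prox1*, *Lyve1* and *Mmrn1* described above were 60 of 181 endothelial cells in the aging pool and 11 of 162 in the diet pool, and the part of this in the difference was not tested. In basal cells *Il1r2* was at 5.15 to 26.4 CPM in 7 aging pool mice and 0 to 2.38 CPM in 8 diet pool mice. Aging pool mice with fewer than 10 basal cells were at 0. The share of all genes with values set apart like this was not counted. DESeq2 and edgeR without the filter called *Il1r2* and *Il1r1* higher and *Il33* lower in the aging pool in basal cells. They called 13.2% and 14.2% of all genes. Pathway genes called were *Casp4*, *Ccl2* and *Nfkbia* in fibroblasts (3 of 11, all higher in the aging pool), *Nfkbia* in endothelial cells (1 of 10, higher), *Irak1* (higher) and *Map3k7*, *Cxcl2*, *Irak2* and *Nfkbia* (lower) in basal cells (5 of 15), and *Nlrc4* (3.72 ± 0.46) and *Ccl2* (2.34 ± 0.46) in secretory cells (2 of 12, both higher).

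Of the members that could be tested, edgeR called none for age within the aging pool and none on the high fat or the low protein diet. Age was fitted as a linear trend per month in macrophages (10 mice, 4 members tested), *Cd74* myeloid cells (4 mice, 4 members), fibroblasts (8 mice, 2 members) and endothelial cells (8 mice, 2 members), with rapamycin as a factor except in *Cd74* myeloid cells, whose 4 mice had none. edgeR called 0 of them, DESeq2 0, and 1 was under an unadjusted p of 0.05, *Il1b* in *Cd74* myeloid cells (0.06 ± 0.02 per month, adjusted p = 0.912), which was called without the filter, where 0.171% of 11110 genes were. The background was 0% in macrophages and *Cd74* myeloid cells, 0.0999% in fibroblasts and 0.544% in endothelial cells. In macrophages *Il1b* changed by 0.01 ± 0.02 and *Il1rn* by -0.00097 ± 0.03 per month. For the diets, with 2 or 3 mice on each side and the library as a block, edgeR called 0 of 3 members in macrophages on either diet, 0 of 1 in fibroblasts on the high fat diet and 0 of 2 on the low protein diet, with 0 under an unadjusted p of 0.05 and 0 by DESeq2. The background was 0% in these comparisons, except 0.0553% in fibroblasts on the high fat diet. The adjusted p of every member was 0.998 or above.

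Over the 137 sums of a mouse and a class, the genes most like each member in log2 level, by Pearson's r among 11445 genes, were *Ly86* (0.917), *Nlrp3* (0.917) and *Cybb* (0.914) for *Il1a*, *Clec12a* (0.951), *Spi1* (0.949) and *Cd300a* (0.942) for *Il1b*, and *Ccl6* (0.957), *Nlrp3* (0.956) and *Wfdc17* (0.937) for *Il1rn*. These r describe the spread over classes, and the sums of a mouse share its library and depth. *Il1r2* was most like *Wdfy4* (0.779), *Cd80* (0.757) and *Plbd1* (0.748), and *Il1r1* most like *F2r* (0.793), *Ctla2a* (0.786) and *Fstl1* (0.783). For *Il18* (*Tlr2* at 0.689 and below) and *Il33* (*Prelp* at 0.694 and below) no gene reached 0.7. Among the members, *Il1a*, *Il1b* and *Il1rn* were alike at 0.878 to 0.921, and *Il1r1* ran opposite to all 3, at -0.418 to -0.517.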

How the data were processed

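Single-cell RNA was measured in whole seminal vesicles of 23 mice in 7 libraries. The deposited matrices hold UMI counts per gene and barcode, which the authors made against mm10, and the submitters' notes name Seurat. The authors had assigned pooled cells to mice by tag, and the condition of each pooled mouse was taken from the deposited multiplexing tables. Of 32285 and 31053 genes in the 2 references 30406 are shared and were used, 597 of them under another symbol in one, and 12 tag rows were left out. Mouse depth ranged from 1037141 to 48530060 UMIs, and intervals and floors cover counting error only.

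Cells with 500 or more genes, 200 or more UMIs and up to 10% mitochondrial UMIs were put in a class by marker gates: *C1qa* at least 3, *Cd74* at least 10 (with *C1qa*, *Cd79a* and *Ms4a1* at 0 and *Tyrobp* or *Fcer1g* found), *Cd3e* at least 1, *Col1a1* plus *Col1a2* at least 5 (with *Myh11* at most 1), *Pecam1* at least 2, *Krt5* plus *Krt14* at least 5, and *Svs* genes at least 25% of UMIs. No doublet caller was run. Cells that met 2 or more gates got no class. Tagged barcodes were shared 0 times within a pool and at most 30 times between libraries. A low estimate of free RNA was read from the shares in secretory cells, after thinning to 1000 UMIs, which removes more from these larger cells.

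Counts were summed per mouse and class (at least 10 cells) and tested with edgeR 4.0.16 (TMM, quasi-likelihood, Benjamini-Hochberg over all genes, call at adjusted p under 0.05), with a mouse term between classes, none between pools, a rapamycin term for age and a library term for diets. DESeq2 1.42.0 and library size, filter, gate, mitochondrial, *Svs* and mouse subsets were the alternatives, with R 4.3.3, Python 3.11.15, NumPy 2.4.6, SciPy 1.17.1, pandas 2.3.3 and matplotlib 3.10.9. The edgeR test was also run on simulated counts with the same dispersion for every gene and no mouse or library effect, which is simpler than these data. Deviations from the group mean had r of 0.239 to 0.638 between same-numbered mice of the diet groups. Number 3 was the single-mouse library in each. These means mix pool mice with a single-mouse library, so a library difference alone can give positive r. Whether the numbers paired the diet mice therefore cannot be told. In the age groups r was -0.12 to 0.0743.

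The members, gates and lists were chosen with earlier results of these data known. Besides the members, the text names the pathway genes past the threshold with the 4 largest differences in each direction and the 3 genes most like each member, and other named genes were chosen after their values were seen. Coordinates are those of GRCm38, and promoters those of the RefSeq table for GRCm38.p6.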

Additional observations from a re-analysis of the deposited data

Results flagged for a closer look

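Of 30 groups of 4 to 10 mice checked for a mouse that stands apart, 1 had such a mouse, where chance gives about 1 in 20. This was *Il1r2* in the macrophages of the aging pool, where 1 mouse of 3 months was at 79.0 CPM (20 UMIs in 58 cells) against 20.5 to 51.1 CPM in the other 9.

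For *Il1rn* the pools were also compared in the ratio of both myeloid classes, which did not pass the threshold after adjustment. The log2 ratio of its macrophage to its *Cd74* myeloid level was 0.24 ± 1.58 (SD) in 4 aging pool mice and 2.82 ± 0.50 in 4 diet pool mice, a difference of -2.57. The 2-sided exact permutation test gave p = 0.0286, the smallest that 4 against 4 mice allow, and 0.114 after adjustment over the 4 members compared this way.

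Cells of no class, which the comparisons leave out, held most of the *Il1r1* and *Il33* UMIs. *Il33* was at 126.6 CPM over the 4400 cells with at least 2 *Myh11* UMIs, a gene of smooth muscle, of which 3823 cells and 1219 of the 1304 UMIs came from the young and old individuals. Among the 14 mice with 10 such cells it was at 0 to 189 CPM, with a median of 39.6. *Il1r1* was at 278.5 CPM in 3475 cells with at least 3 UMIs of *Col3a1*, *Dcn*, *Lum* and *Pdgfra* that did not reach the *Col1a1*/*Col1a2* gate (60.6 to 465 CPM in 23 mice, median 323), and at 102.3 CPM in 485 cells with at least 2 UMIs of *Rgs5*, a pericyte gene. *Il18* was at 21.6 CPM in 455 cells with at least 1% of UMIs from prostate-like markers, and above 0 in 13 of 13 mice (9.79 to 39.3 CPM). For these cells 0 tests between groups were run.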

How the results depend on the processing

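Of 265 counts of called members under the alternatives 239 stayed within 1.5 times the reported count, and of 514 log2 differences 490 kept their direction and side of the threshold. In what follows the percent in brackets is the share of all genes called in the same fit. With DESeq2 the counts were 7 in macrophages (38.4%), 6 in T cells (32.7%), 3 in basal against secretory cells (37.2%, 0 members in the report), and for the pools 2 in macrophages (2.3%), 1 in endothelial (3.25%) and 3 in basal cells (13.2%). Without the filter on low counts, which tests more genes, they were 7 (41.7%), 6 (32.2%) and 4 (40.4%), then 2 (2.92%), 1 (4.47%) and 3 (14.2%), with 4 in fibroblasts against endothelial cells (24.8%), 2 for the pools in fibroblasts (4.38%) and 1 for age in *Cd74* myeloid cells (*Il1b*, 0.171%). The higher gates left 3 in *Cd74* myeloid cells (43.5%) and 0 in fibroblasts against endothelial cells (50.4%). The lower gates left 1 in T cells (60.6%) and 3 in endothelial cells (61.3%) and gave 1 for the pools in endothelial cells (22.8%). The diet pool alone left 1 in T cells (43.8%), 3 in endothelial cells (43.7%) and 4 in basal cells (52.6%), the mice other than the young and old individuals 4 in basal cells (58.3%), and the aging pool alone gave 1 in basal against secretory cells (62.7%). Library size gave 2 for the pools in *Cd74* myeloid cells (6.54%). The cause of these changes was not tested. Leaving out 1 mouse at a time, chosen after the data were seen for the pools, gave 1 to 2 calls in macrophages (2, with *Il1r2*, without a control, low protein or high fat mouse or either mouse on caloric restriction) and 0 to 1 in *Cd74* myeloid cells. The median of *Il1r1* in T cells was 46.6 CPM with the higher gates and 47.6 with cells of several gates kept. Directions turned for *Il1r1* in endothelial cells (-0.32, lower gates), *Il33* in endothelial cells (-0.0906, diet pool), *Il18* in basal cells (-0.0081, diet pool) and *Il1b* in macrophages against *Cd74* myeloid cells (-0.0079 with library size, -0.0023 without the young and old individuals, -0.0872 with cells of several gates kept).

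With the replicate number as a block 0 members were called for age and 0 for the diets, as without it. Leaving out a mouse could not be fitted for age in *Cd74* myeloid cells or, without either control, for diet in fibroblasts, nor could age in *Cd74* myeloid cells at most 5% mitochondrial UMIs. With 4 to 10 mice and single-digit UMI counts of *Il18*, *Il33* and *Il1r2* in many sums, small differences were not detectable at this depth.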

Other observations

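Cells with *C1qa* at 1 or 2 UMIs, below the macrophage gate and in no other class, held the agonists as well. The 110 such cells were at 1805 CPM for *Il1b*, 425 for *Il1a* and 530 for *Il1rn* over all mice. The 354 cells of no class with at least 2 UMIs of the B cell genes *Cd79a* and *Ms4a1* were at 4.30 CPM for *Il1b*. The 3646 cells rich in epididymis markers were at 0.147 CPM for *Il1b* and 4.50 for *Il1r1*.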
